A study of Rattus norvegicus with 8 samples.

Results

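The miRNAs described here are the products of the rat miR-199a and miR-214 hairpins, and they were found by name as every row for miR-199a or miR-214 with any arm suffix. The rule matched 4 of the 620 known rat miRNAs in the table, namely rno-miR-199a-5p, rno-miR-199a-3p, rno-miR-214 and rno-miR-214*. The first 3 were tested, together with the other miRNAs (367 in all) that reached 10 reads in 4 or more of the 8 libraries, whereas rno-miR-214* was too rare. Small RNA was sequenced from cut pieces of kidney of 8 male Big Blue transgenic Fisher 344 rats, animals with an integrated transgene used to score mutations, with 1 rat per library. The AA group of 4 rats was given aristolochic acid (AA, a plant-derived kidney carcinogen) by gavage in the form of the sodium salt, 10 mg/kg per dose, with 5 doses a week over 12 weeks from the age of 6 weeks. The CTL group of 4 rats was dosed on that schedule with saline (0.9% sodium chloride), and the kidneys of all rats were taken 1 day after the last dose. Every library is from treated or mock-treated animals of the same transgenic strain, and no other strain, dose or time was included.

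The miR-199a and miR-214 hairpins lie side by side on the strand opposite to Dnm3, the gene of dynamin 3, and are known to be transcribed together as parts of one long RNA. Dicer cuts each hairpin into a duplex of a 5p and a 3p arm, and either arm can be loaded into Argonaute and guide the repression of mRNAs through its seed, the bases 2 to 8. In adult tissues the cluster is known mainly from mesenchymal cells such as fibroblasts, pericytes and smooth muscle, where the transcription factor Twist1 drives it, and both miRNAs have been studied in renal fibrosis. In a library from a piece of unsorted kidney tissue, more cells of one type and more of a miRNA in each cell cannot be told apart.

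The mature sequences are shown because the arms and the seeds define what was counted. They are from RefSeq on the rat assembly GRCr8, where all 4 members were matched by name (rno-miR-214 is listed there as the 3p arm and rno-miR-214* as the 5p arm), and capitals mark the seed:
rno-miR-199a-5p: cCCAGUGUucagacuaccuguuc
rno-miR-199a-3p: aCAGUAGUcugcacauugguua
rno-miR-214 (3p): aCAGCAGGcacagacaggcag
rno-miR-214* (5p): aGAGUUGUcaugugucu
rno-miR-3120 (antisense neighbor): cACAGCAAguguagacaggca

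The 4 members have 4 different seeds, and among the 724 mature rat sequences of the RefSeq table no other entry shares a seed with any of them, so the cluster is not one seed family. Over their first 8 bases rno-miR-199a-3p and rno-miR-214 differ only by the substitutions U5C and U8G, counted from the 5′ end with the base of rno-miR-199a-3p first. In GRCr8 rno-miR-199a-5p lies at chr13:77116255-77116277 and rno-miR-199a-3p at chr13:77116294-77116315, both on the plus strand and both inside the bounds of Dnm3, which is on the minus strand. rno-miR-214* lies at chr13:77121656-77121672 and rno-miR-214 at chr13:77121713-77121733, on the plus strand as well. No annotated gene lies between the hairpins, and 5340 bases separate the last base of rno-miR-199a-3p from the first of rno-miR-214*. The lengths are 23, 22, 21 and 17 bases for rno-miR-199a-5p, rno-miR-199a-3p, rno-miR-214 and rno-miR-214*. The libraries were cut from a gel at 22 to 30 nucleotides, and rno-miR-214 and rno-miR-214* are both shorter than this range. The shortest, rno-miR-214*, was the least likely to be recovered, and the recovery of either was not tested. In other mammals another miR-199 gene yields the same 3p sequence, so reads of such a copy would be counted on rno-miR-199a-3p. Reads of any other copy with the same 5p sequence would likewise be counted on rno-miR-199a-5p, and the origin of the reads of either arm was not tested.

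The hairpin of miR-214 shows how its arms are placed, with the 5p arm and then the 3p arm in capitals (chr13:77121645-77121752, plus strand, GRCr8):
Mir214: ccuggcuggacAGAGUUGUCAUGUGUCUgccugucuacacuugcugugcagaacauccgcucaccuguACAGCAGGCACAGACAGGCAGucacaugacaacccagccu

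Of the reads on the annotated arms of this hairpin, almost all were on rno-miR-214. Over the 8 libraries these were 3222 of 3225 reads, or 99.9% (95% Wilson interval 99.7% to 99.97%, counting error only). In the hairpin as printed, the bases that can pair with rno-miR-214 are mostly in lower case, after rno-miR-214*. The rows of rno-miR-214 and rno-miR-214* do not cover them, so the share does not describe all products of the hairpin. rno-miR-214* had no read in any CTL library, and 1, 0, 1 and 1 reads in AA1 to AA4. A count of 0 allows up to 3 reads in a library, so that no difference was detectable for this arm at this depth, and no fold change is given. On the other strand, where the hairpin of Mir3120 overlaps that of miR-214 by 106 bases, rno-miR-3120 had 4, 5, 6 and 6 reads in CTL1 to CTL4 and 2, 3, 6 and 1 in AA1 to AA4, and it was also too rare to be tested. Its mature sequence shares 1 position with rno-miR-214* and none with rno-miR-214.

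rno-miR-199a-3p, the most abundant member, was higher in the AA group. It had 4548, 4764, 5260 and 3581 reads in CTL1 to CTL4, and 4859, 9569, 8559 and 9689 reads in AA1 to AA4. As CPM (read counts relative to library size, with the sizes scaled by the TMM method), these were 341, 351, 326 and 292 in the control rats and 376, 519, 589 and 574 in the AA rats. The groups did not overlap, but AA1 lay only just above the highest control rat. The group levels were 327 ± 25.8 CPM (SD, n = 4) in the CTL group and 514 ± 97.3 CPM (SD, n = 4) in the AA group. This was 1.57-fold, or 0.65 on the log2 scale with a standard error of 0.18. The adjusted p was 0.033 (quasi-likelihood test of edgeR, Benjamini-Hochberg adjusted over the 367 miRNAs). Leaving out each library gave log2 fold changes between 0.50 and 0.68. Of these 8 refits only that without AA1 kept the call (adjusted p = 0.026 from edgeR), and the loss occurred without each of the 7 other libraries, with the highest adjusted p, 0.14, without CTL3. It was also lost in the 6 libraries numbered 1 to 3 (0.50, adjusted p = 0.12 from edgeR).

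rno-miR-199a-5p, the other arm of the same hairpin, had the largest fold change of the 3 and was not called. Its reads were 1514, 1942, 1972 and 2539 in CTL1 to CTL4 and 1781, 4957, 3418 and 6359 in AA1 to AA4. These correspond to 114, 143, 122 and 207 CPM in the control rats and 138, 269, 235 and 377 CPM in the AA rats. The groups overlapped, because AA1 was below CTL2 and CTL4, while the other AA rats were above all control rats. The group levels were 146 ± 42.1 CPM (SD, n = 4) and 255 ± 98.6 CPM (SD, n = 4), a log2 fold change of 0.80 (standard error 0.31) or 1.74-fold, with an adjusted p of 0.11 from edgeR. Without AA4 the log2 fold change was 0.43.

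rno-miR-214 was the least abundant of the tested members and had the smallest difference. It had 239, 321, 316 and 342 reads in CTL1 to CTL4 and 300, 536, 430 and 738 in AA1 to AA4, or 17.9, 23.6, 19.6 and 27.9 CPM in the control rats and 23.2, 29.1, 29.6 and 43.7 CPM in the AA rats. AA1 again fell within the control range and AA4 was the highest of all. The group levels were 22.2 ± 4.44 CPM (SD, n = 4) and 31.4 ± 8.71 CPM (SD, n = 4), a log2 fold change of 0.50 (standard error 0.24) or 1.41-fold, with an adjusted p of 0.20 from edgeR. Without AA4 the log2 fold change was 0.18, and without CTL3 it was 0.30.

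**Figure D1:**
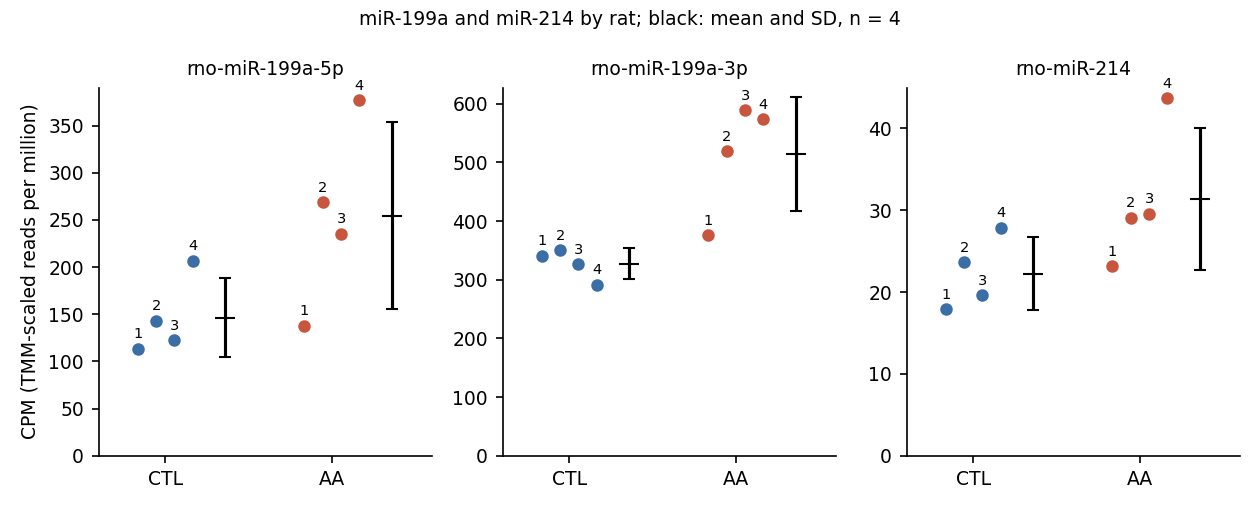
CPM of rno-miR-199a-5p, rno-miR-199a-3p and rno-miR-214 in each rat, with the library number beside each point and the mean and SD (n = 4) in black. AA1 lies near the control rats in all 3 panels, and only for rno-miR-199a-3p are all AA rats above all control rats.

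Of the 3 members tested, 1 was called higher, against 10.4% of all miRNAs called higher and 16.3% called in either direction (38 higher and 22 lower, or 54 and 14 with total counts). With 3 members this count says little about the cluster. Their 3 log2 fold changes were above 0, with a median of 0.65 beside 0.06 over all 367 miRNAs. Complete separation with the AA rats above the control rats was seen for 1 of the 3 members and for 14.4% of all miRNAs. The member called was the one that varied least between rats, and not the one with the largest difference. The coefficient of variation in the CTL group was 7.88% for rno-miR-199a-3p, 28.8% for rno-miR-199a-5p and 19.95% for rno-miR-214, and in the AA group it was 18.9%, 38.7% and 27.8%. The lowest count of any tested member in a library was 239.

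**Figure D2:**
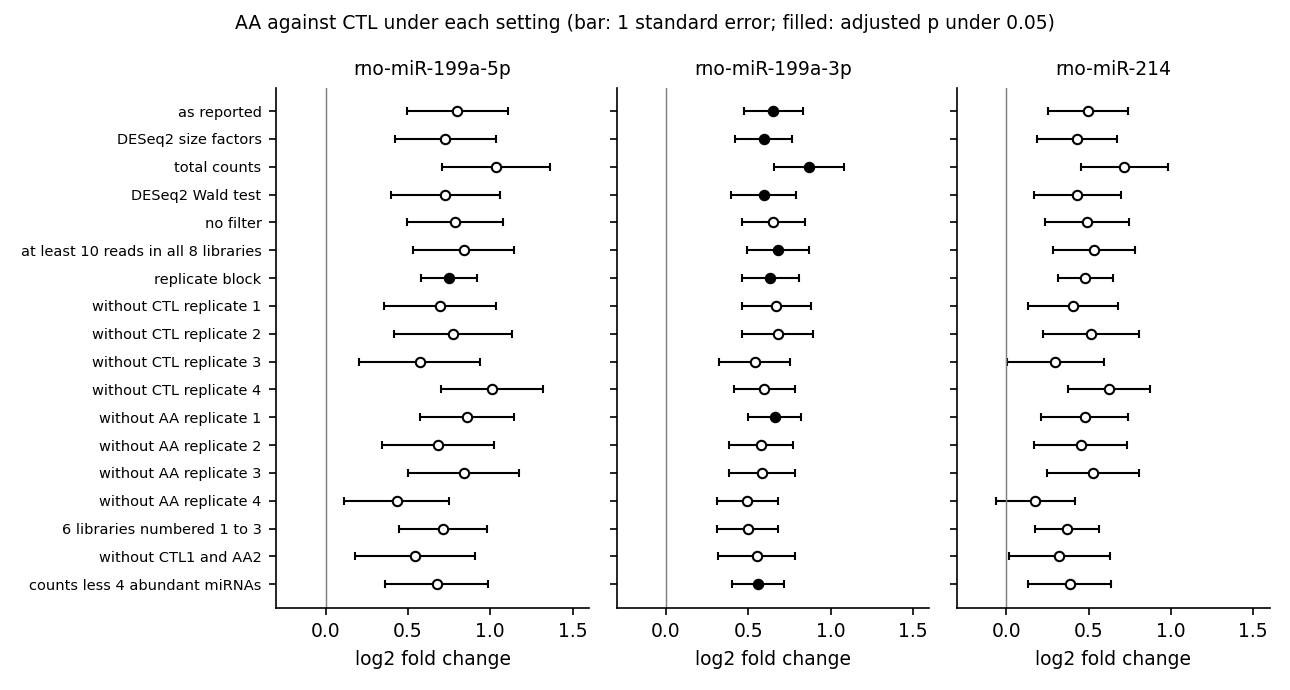
Log2 fold change (AA against CTL, bar 1 standard error) of the 3 tested members as reported and under 17 other settings, filled where the adjusted p was under 0.05. All values lie above 0, those of rno-miR-199a-3p are filled in 7 of the 17 other settings, and those of rno-miR-214 are never filled.

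Ratios of the members' reads within a library need no scaling between libraries. Reads of another gene with the same 3p sequence would enter those with rno-miR-199a-3p, which was not tested. The log2 ratio of rno-miR-199a-5p to rno-miR-199a-3p reads was -1.59, -1.29, -1.42 and -0.50 in CTL1 to CTL4 and -1.45, -0.95, -1.32 and -0.61 in AA1 to AA4. The 3p arm was thus the more abundant in every library. The means were -1.20 ± 0.48 (SD, n = 4) and -1.08 ± 0.38 (SD, n = 4), and the difference of 0.12 was smaller than the SD of either group (p = 0.77 by a two-sided exact permutation test).

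The arm ratio differed more between libraries of one group than between the groups. rno-miR-199a-5p took 25.0%, 29.0%, 27.3% and 41.5% of the reads of both arms in CTL1 to CTL4, and 26.8%, 34.1%, 28.5% and 39.6% in AA1 to AA4. The 95% Wilson intervals, which cover counting error only, were 40.3% to 42.7% in CTL4 and 38.9% to 40.4% in AA4, above those of all other libraries. In both groups, then, the library numbered 4 had the highest share of the 5p arm. The labels do not say what the number stands for. The same comparison was made for all 111 hairpins with both arms tested, and 68 of them moved the same way in CTL4 and AA4 relative to libraries 1 to 3 of their group. The shift of the miR-199a pair was 0.94 in CTL4 and 0.63 in AA4 on the log2 scale, and it ranked 16 of 111 by this shift and 91 by the size of its difference between AA and CTL.

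**Figure D3:**
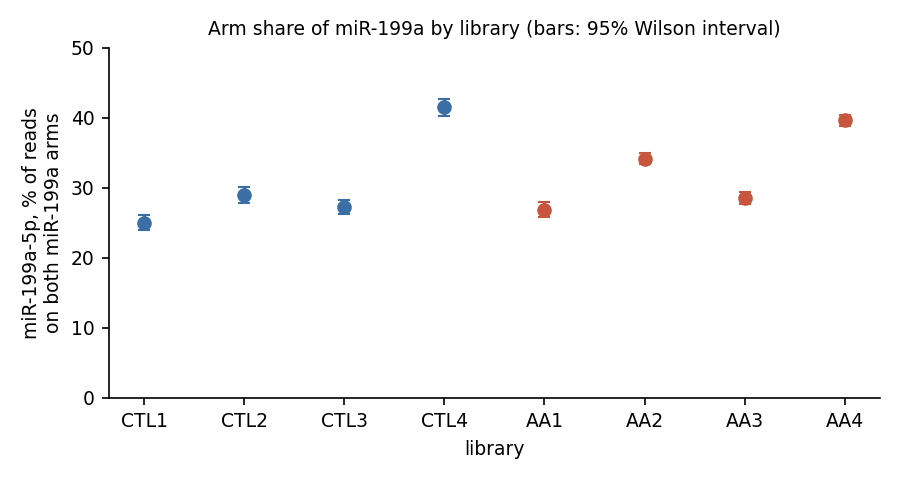
Share of rno-miR-199a-5p in the reads of both miR-199a arms in each library, with 95% Wilson intervals. CTL4 at 41.5% and AA4 at 39.6% are the highest, and AA2 at 34.1% lies between them and the other libraries.

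The ratios of rno-miR-214 to the miR-199a arms did not pass the test. Its log2 ratio to rno-miR-199a-5p was between -2.89 and -2.60 in the CTL group and between -3.21 and -2.57 in the AA group, with means of -2.70 ± 0.13 and -2.97 ± 0.28 (SD, n = 4 each) and a difference of -0.27 (exact permutation test, two-sided, p = 0.14). AA1 had the highest ratio of all rats, and AA2 to AA4 were below every control rat. Leaving out 1 library at a time gave differences between -0.40 (without AA1) and -0.19 (without AA2). Since AA2 to AA4 were below every control rat, the exact permutation p without AA1 could only be 0.057. That is the smallest that 3 against 4 rats can give, and nothing is drawn from it. Its log2 ratio to rno-miR-199a-3p was between -4.25 and -3.39 in the CTL group and between -4.32 and -3.71 in the AA group, with a difference of -0.15 (p = 0.54, exact permutation test). None of the 3 ratios between members had an unadjusted p under 0.05 in the exact permutation test. The adjusted values over all 8 ratios planned were 0.77, 0.23 and 0.62. They also depend on the p-values of the 5 ratios to marker lists, which are not given, so nothing is drawn from them. The smallest p this test can give for 4 against 4 rats is 0.029. These ratios count reads and not molecules, since ligation of adaptors can favor one sequence over another. rno-miR-214 is also shorter than the range cut from the gel, unlike the miR-199a arms, and its recovery was not tested.

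Likeness to other miRNAs was measured as the root-mean-square difference of log2 CPM over the 8 libraries, each centred on its own mean, with 366 miRNAs compared for each member. For rno-miR-199a-5p the nearest was rno-miR-214 (0.23), followed by rno-miR-331, rno-miR-191*, rno-miR-325-3p and rno-miR-350, and rno-miR-199a-3p came only at rank 16 (0.38). For rno-miR-214 the nearest 5 were rno-miR-331 (0.13), rno-miR-532-3p, rno-let-7f-2*, rno-miR-325-3p and rno-miR-152*, with rno-miR-199a-5p at rank 15 and rno-miR-199a-3p at rank 26. For rno-miR-199a-3p they were rno-miR-29a* (0.12), rno-miR-196a, rno-miR-24-2*, rno-miR-505 and rno-miR-652, with rno-miR-214 at rank 24 and rno-miR-199a-5p at rank 84. The pattern of rno-miR-199a-5p was therefore nearer to that of rno-miR-214, from the neighboring hairpin, than to that of its own opposite arm. This is a description of 8 libraries, and both rno-miR-199a-5p and rno-miR-214 were highest in the libraries numbered 4 of each group.

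The cluster was set beside miRNAs of named cell types, and none of these differences between miRNAs was tested. The mesenchymal list held miR-143 and miR-145, the smooth muscle pair, with their opposite arms, and 0 of its 4 members was called (median log2 fold change 0.12). rno-miR-143 was at 198650 ± 26886 CPM in the CTL group and 154689 ± 19391 CPM in the AA group (SD, n = 4 each). Its log2 fold change was -0.36 (adjusted p = 0.18 from edgeR). rno-miR-145 was at 566 ± 97.8 and 682 ± 71.8 CPM (SD, n = 4 each), with a log2 fold change of 0.27 (adjusted p = 0.32 from edgeR). Of the endothelial pair, miR-126 and miR-126*, neither was called, with a median of -0.38. The summed reads of the 3 members relative to those of the mesenchymal list had log2 ratios between -8.84 and -8.56 in the CTL group and between -8.42 and -7.16 in the AA group, without overlap. Relative to the endothelial list they were between -4.46 and -4.12 in the CTL group and between -4.14 and -2.92 in the AA group, with an overlap at AA1. The differences of the means were 1.01 and 0.92 on the log2 scale. rno-miR-143 made up most of the mesenchymal sum, and with the mean of log2 counts in place of the sum the difference was 0.58, beside an SD of 0.55 for the summed ratio in the AA group.

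Of 8 miRNAs linked with fibrosis, 4 were called higher and none lower, with a median log2 fold change of 0.92. Over all miRNAs 10.4% were called higher. The 4 were rno-miR-21, its opposite arm rno-miR-21*, rno-miR-132 and rno-miR-212, so they are not 4 independent loci. rno-miR-21, which is induced in injured tubules and in fibrosis, was at 32390 ± 4536 CPM in the control rats and 128589 ± 51184 CPM in the AA rats (SD, n = 4 each). Its log2 fold change was 1.99 (edgeR adjusted p = 0.0011). rno-miR-132 and rno-miR-212, which share a precursor transcript and are studied in myofibroblasts, also rose, with log2 fold changes of 1.9996 and 1.86 (edgeR adjusted p = 0.00070 and 0.0014). rno-miR-29a, rno-miR-29b and rno-miR-29c, repressors of collagen mRNAs, had log2 fold changes of 0.04, 0.21 and -0.13 and were not called (adjusted p of at least 0.48 from edgeR). rno-miR-192, also on the nephron list, was at 38408 ± 24835 CPM in the CTL group and 22263 ± 6343 CPM in the AA group (SD, n = 4 each), with a log2 fold change of -0.79 (edgeR adjusted p = 0.20). The fold changes of the cluster were smaller than that of any called miRNA on this list.

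Markers of other cell types also moved between the groups, and their part in the values of the cluster was not tested. Of 6 leukocyte miRNAs measured (the seventh, miR-155, had no row), 3 were called higher, against 10.4% of all miRNAs. They were rno-miR-142-3p, rno-miR-146b and rno-miR-223, of which rno-miR-223 was not called without CTL1 and AA2. Not called were rno-miR-142-5p, the opposite arm of rno-miR-142-3p, rno-miR-146a and rno-miR-150. Their log2 fold changes were 0.30, -0.09 and 0.58 (adjusted p = 0.56, 0.71 and 0.062 from edgeR). The summed level of the 6 was 2468 to 3557 CPM in the CTL group and 4259 to 8104 CPM in the AA group. Relative to this list the summed reads of the cluster had a mean log2 ratio of -2.55 ± 0.30 in the CTL group and -2.92 ± 0.51 in the AA group (SD, n = 4 each). The 5 epithelial miRNAs of the miR-200 family gave no call, with a median of -0.07. Of 6 nephron miRNAs, rno-miR-194 and rno-miR-204 were called lower (log2 fold changes of -0.73 and -0.80, adjusted p = 0.0499 and 0.034 from edgeR), but neither was called with total counts in place of TMM scaling or without CTL1 and AA2. Over all 367 miRNAs, 22 were called lower. The pair of red blood cell miRNAs, miR-144 and miR-451, was not called, with summed levels of 499 to 798 CPM in the CTL group and 158 to 564 CPM in the AA group.

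**Figure D4:**
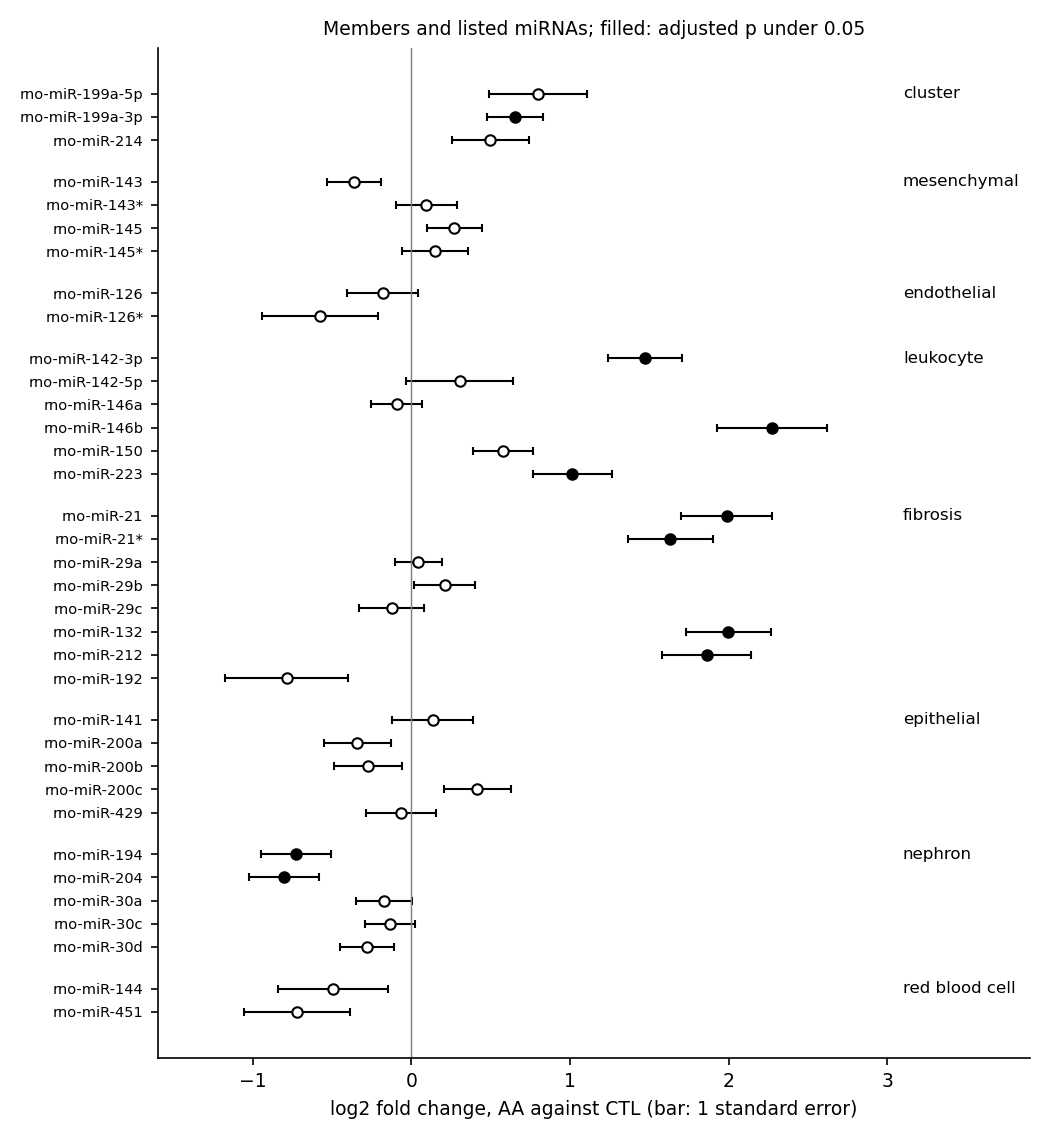
Log2 fold change (AA against CTL, bar 1 standard error) of the 3 tested members and of the listed miRNAs, filled where the adjusted p was under 0.05. The cluster lies between the mesenchymal miRNAs, none of them filled, and the filled leukocyte and fibrosis miRNAs. miR-192, on both the fibrosis and the nephron list, is drawn once.

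The AA rats did not follow the same order for the cluster and for the injury-linked miRNAs. The summed CPM of the 3 members was 1.08 times the control mean in AA1, 1.65 times in AA2, 1.72 times in AA3 and 2.005 times in AA4. rno-miR-21 was 5.09, 3.12, 2.18 and 5.49 times its control mean in the same rats, and rno-miR-146b was 6.98, 3.60, 2.24 and 6.53 times. For rno-miR-142-3p the values were 2.32, 2.78, 1.94 and 4.06 times, with AA1 below AA2 and AA4 as for the cluster, and AA3 the lowest. AA1 thus combined a cluster level near the controls (0.94 to 1.06 times the control mean) with rno-miR-21 and rno-miR-146b levels near those of AA4, whereas AA3 had the lowest rno-miR-21 and rno-miR-146b of the AA rats and the highest rno-miR-199a-3p. Per 1000 rno-miR-21 reads, the 3 members had 12.2, 16.5, 15.0 and 18.7 reads in CTL1 to CTL4 and 3.26, 8.09, 12.1 and 5.59 in AA1 to AA4. The comparison with these single miRNAs was chosen after their values were seen and was not tested.

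**Figure D5:**
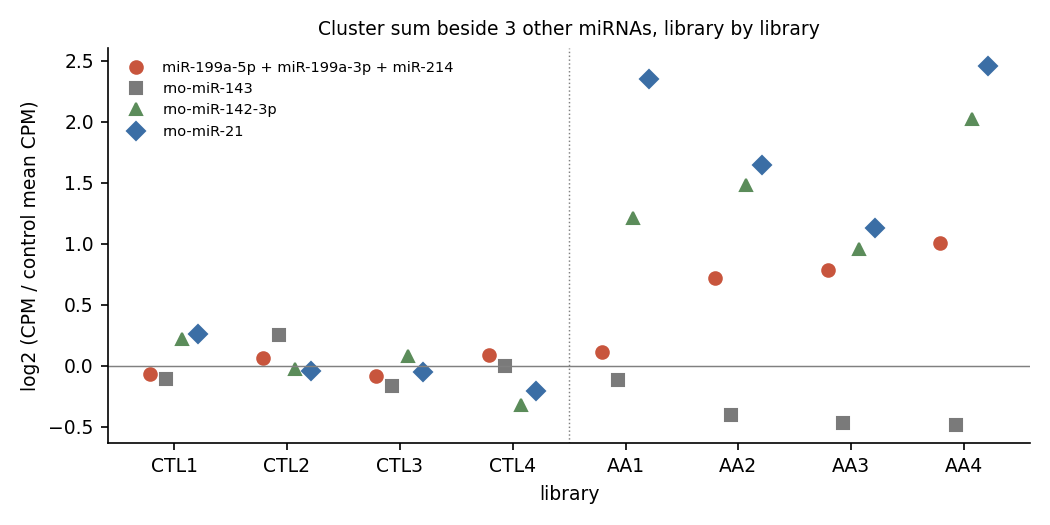
Log2 of CPM relative to the control mean for the sum of rno-miR-199a-5p, rno-miR-199a-3p and rno-miR-214 and for rno-miR-143, rno-miR-142-3p and rno-miR-21 in each library. AA1 is near 0 for the cluster, at 0.11, and at 2.35 for rno-miR-21.

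The counts of the libraries summed to 13412373 to 15616670 reads on known miRNAs. The 3 members together took 0.0413% to 0.0486% of them in the CTL group and 0.0517% (AA1) to 0.107% in the AA group. Most of these reads were on rno-miR-199a-3p. The shares carry no scaling between libraries, and how often other sums of miRNAs separate the groups in this way was not tested. The paper states fewer reads on known rat miRNAs over all its samples than any single library holds here, and the reason was not examined. By mean CPM, rno-miR-199a-3p ranked 75, rno-miR-199a-5p ranked 95 and rno-miR-214 ranked 169 of the 367. Without any scaling factor the median log2 fold change of all miRNAs moved up by 0.21. Relative to that median, the log2 fold changes of rno-miR-199a-5p, rno-miR-199a-3p and rno-miR-214 were 0.76, 0.59 and 0.44 with total counts and 0.74, 0.59 and 0.44 with TMM scaling. One field of the labels gives the tissue as liver, while the other fields and the published methods give kidney. miR-122, the defining miRNA of liver cells, had 9 to 95 reads in 6 of the libraries, 707 in CTL1 and 9634 in AA2. The 6 nephron miRNAs summed to at least 126462 CPM in every library. Most of that sum was rno-miR-30a (88673 to 142055 CPM), and whether the sum sets kidney apart from liver was not tested. Without CTL1 and AA2 the log2 fold changes of the members, in the same order, were 0.54, 0.55 and 0.32, and none was called (adjusted p = 0.38, 0.17 and 0.52 from edgeR). Libraries of one group differed well beyond counting error, so each was counted as 1 sample.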

How the data were processed

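Small RNA from 8 rat kidneys (4 CTL, 4 AA) was read on an Illumina sequencer (Genome Analyzer II). The deposited values are counts of reads per known rat miRNA, which the authors made in miRanalyzer by matching reads to miRBase. They are not normalized. The submitters' processing notes name Bowtie and DESeq. The genome build is not given in the sources used here. Group and number were taken from the sample titles.

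The counts were fitted with edgeR 4.0.16 in R 4.3.3 (glmQLFit, glmQLFTest, TMM, Benjamini-Hochberg over 367 miRNAs reaching 10 reads in 4 or more libraries, threshold 0.05). The standard error is the log2 fold change divided by the square root of F. The step was tested on simulated counts with changes larger than those of the members, so that test says nothing of the power at their size. Log2 CPM used a prior count of 2, and arm ratios over all hairpins 0.5 reads. Ratios were compared with the exact permutation test (scipy 1.17.1). The 5 ratios to marker lists are given without p, although one was planned, because the members and lists were chosen with earlier results of these data known. Their p-values were computed and entered only the planned adjustment over 8 ratios. The miRNAs named are the members, the lists, and the 5 nearest to each member. Depth, as the sum of the counts in a library, was 13412373 to 15616670 reads. The alternatives were DESeq2 1.42.0 (size factors, Wald test), total counts, other filters, a block for library number and libraries left out.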

Additional observations from a re-analysis of the deposited data

How the results depend on the processing

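In all 17 alternative fits the log2 fold changes of the 3 tested members were above 0. rno-miR-199a-3p was called in 7 of these fits. Its value was 0.65 with no filter on reads, 0.50 in the 6 libraries numbered 1 to 3 and 0.55 without CTL1 and AA2, and the call was lost in each (adjusted p = 0.051, 0.12 and 0.17 from edgeR). Leaving out 1 library at a time gave 0.50 to 0.68. With the replicate block (paired fit) rno-miR-199a-5p was called, at 0.75 (adjusted p = 0.018 from edgeR), the only call it had in the 17 fits, where its value ranged from 0.43 to 1.03. rno-miR-214 was called in none, with values from 0.18 to 0.72 and adjusted p from 0.076 to 0.65 (edgeR and DESeq2). The block rests on library numbers that share no stated source. The correlations of deviations between same-numbered libraries, across 367 miRNAs that are not independent replicates, were 0.05, 0.20, 0.14 and 0.35, and the deviations of CTL1 were most like those of AA2. The block changed no call of the other members, and brought the calls over all miRNAs from 60 to 78. These were 35 to 51 with 1 library left out (35 without CTL2, 37 without CTL1), 30 without CTL1 and AA2, and between 52 and 74 in the other fits. The alternatives for the 3 ratios between members leave too few rats for the exact permutation test to pass the threshold, with smallest possible p of 0.057 for 3 against 4, 0.10 for 3 against 3 and 0.125 for 4 pairs, and so say nothing of their calls. The sign of the difference turned for 2 of them, with differences between -0.06 and 0.35 for the arms of miR-199a and between -0.27 and 0.01 for rno-miR-214 to rno-miR-199a-3p. The differences in the ratios to the lists moved by less than 1 SD in each alternative. No value of a member, or of its ratios, stood far enough from its group to be set apart. The part of library number, of the rats and of depth in the spread was not tested, and rno-miR-214* and rno-miR-3120 are limited by their reads.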
